A study of Mus musculus with 13 samples.

Results

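Single editing sites that lie alone in introns were described in RNA of the whole brain from 13 mice of strain C57BL/6. A site was taken when it was present in all 3 deposited comparisons of a mutant genotype with wild type, had adenosine as the reference base on the transcribed strand, lay inside a gene but in none of its exons (GENCODE M21, mm10), had no other joined site within 100 nt on its strand, and reached 10 A plus G reads in all 13 libraries. Of 39309 joined sites with a reference A, 6298 were isolated and intronic before the read minimum, and 805 passed it. They made up 805 of the 10613 joined sites that reached 10 reads in every library, and 805 of 6526 such sites in introns, the other 5721 being clustered. The editing level is the share of G among A plus G reads.

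The animals carried 4 genotypes of Adar, the gene of the editing enzyme ADAR1. Wild-type animals (n = 3) were 48, 48 and 74 days old, P195A/+ animals (n = 3) 43 days, P195A/P195A animals (n = 4) 42, 42, 48 and 48 days, and P195A/- animals (n = 3) 42 days. P195A changes the Zα domain, a binder of left-handed nucleic acid that only the long isoform of ADAR1 carries. The labels name no Cre and no tissue restriction of the alleles. The P195A/- animals bear P195A opposite a null allele per their short label, while their longer label gives P195A on either side together with AdarKO/+, which no label explains. Each library holds the brain of 1 animal, with both sexes in every genotype. In such bulk RNA, fewer cells of a type and less RNA per cell cannot be told apart.

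ADAR enzymes deaminate adenosine to inosine in double-stranded RNA, and sequencing reads inosine as guanosine. Introns of brain transcripts hold many inverted repeats that fold back on themselves, and editing there takes place in the nucleus on RNA that is still unspliced. ADAR1 and the related ADARB1 (ADAR2) both act in neurons, and most editing events fall in groups within one duplex, so that single sites are a minority of those in introns.

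Sequence around the edited base is shown for 3 sites that lie over an exon of a gene on the opposite strand, since the GENCODE M21 transcripts of those genes hold these bases. Each run has 30 bases of the edited strand, mm10, 5′ to 3′, with the edited A in capitals at position 15. The base before it is G, C and T in turn, and the base after it is T, G and G.
1700016P03Rik, chr11:75176529-75176558, plus strand, opposite Ovca2: aagctcagtctcagAtctgcctgtctctgc
Brk1, chr6:113611138-113611167, plus strand, opposite Gm44199: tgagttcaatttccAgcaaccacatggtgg
Rbm5, chr9:107763273-107763302, minus strand, opposite Gm37850: ttccaggttgtcctAgaagtccttctgtag
The Rbm5 site was edited at a mean of 27.1% over the 4 genotypes, the Brk1 site at 15.3% and the 1700016P03Rik site at 3.58%. Rbm5 encodes a splicing regulator and Brk1 a small subunit of the WAVE actin-regulating complex. The 1700016P03Rik site returns below, among those with the smallest p.

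Library totals ranged from 13539148 to 22399005 gene counts. Markers of neurons, astrocytes and oligodendrocytes summed to 4283 CPM or more, 7301 or more and 6871 or more in every library. The 5 muscle markers summed to 268 CPM for P195A/- replicate 2 and to 35.9 CPM for P195A/+ replicate 3, against at most 13.04 CPM elsewhere. The 5 blood markers ran from 234 to 1187 CPM, highest in wild type replicates 1 (1187 CPM) and 3 (955 CPM), then in P195A/+ replicate 3 (942 CPM) and P195A/- replicate 2 (903 CPM). The part of either in the results was not tested. Bases other than A and G made up 0.00482 to 0.0259% of the reads at the isolated intronic sites. Across the 3 deposited comparisons the wild-type reads were identical, so these comparisons share their controls.

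The 805 sites lay in 489 genes. Of these genes, 348 held 1 site and 141 held 2 or more, and 21 genes with at least 5 sites held 167 of them. The host was protein-coding for 764 sites, a lincRNA for 20, a processed transcript for 12, an antisense RNA for 7 and an unclassified transcript (TEC) for 2. There were 394 sites on the plus and 411 on the minus strand, and 28 lay inside a gene of the opposite strand. The hosts were abundant RNAs, with a median of 129 CPM for the tested ones, against 11.8 CPM over all 19962 genes tested. A host had to be covered deeply enough for the read minimum.

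Isolated sites were edited at low levels. The mean of the 4 genotype means was 8.94% at the median site, with quartiles of 4.86 and 16.3% and a highest value of 80.8%. It lay under 1% at 13 sites, from 1 to 5% at 199, from 5 to 10% at 230, from 10 to 20% at 218, from 20 to 50% at 133 and at 50% or more at 12. A G read was present in all 13 libraries at 262 sites (32.5%) and in all 4 genotypes at 700. At the edges of the rule, the 170 members whose shallowest library had exactly 10 reads had a median pooled level of 9.05%, and 191 sites left out at 9 reads had 9.78%. The 30 members with a neighbour beyond 100 and up to 120 nt had 9.60%, and 62 sites left out with one at 81 to 100 nt had 9.44%. The histogram of member levels has its peak in the lowest bins and a long tail to the right.

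**Figure D1:**
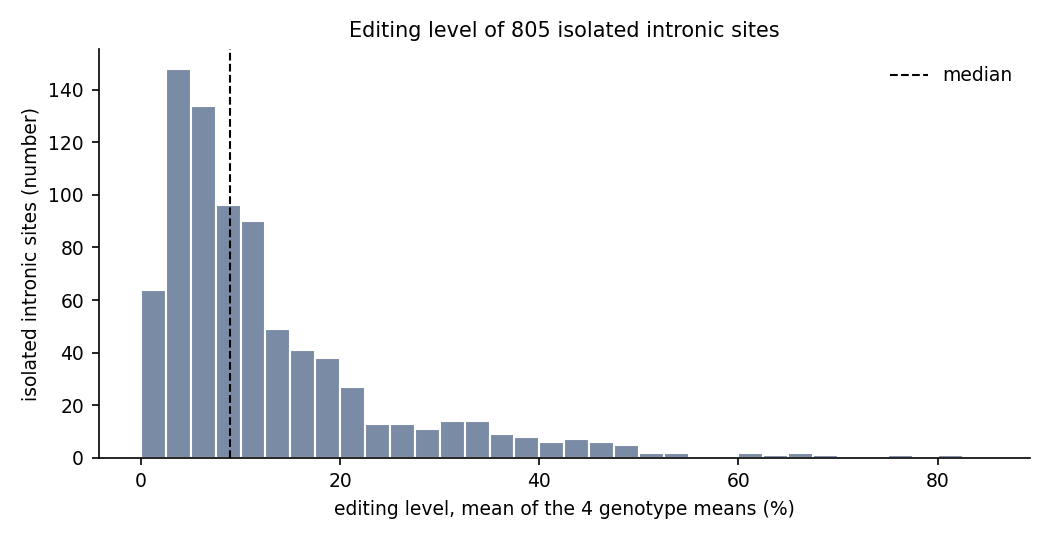
Number of isolated intronic sites (y axis) by editing level in percent (x axis, mean of the 4 genotype means, bins of 2.5 points). The dashed line is the median of 8.94%, and 12 of the 805 sites lie at 50% or more.

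The most highly edited site lay in Cadm1, which encodes a cell adhesion molecule of synapses (chr9:47635843, plus strand). Its level was 66.7, 81.8 and 70% for wild type, 94.4, 73.7 and 82.6% for P195A/+, 90.5, 71.4, 100 and 82.6% for P195A/P195A and 69.7, 87.5 and 84.6% for P195A/-. The groups overlapped. Pooled over libraries, 218 of 275 reads carried G (79.3%, 95% Wilson interval 74.1 to 83.6%). The next highest were Mrs2, a mitochondrial magnesium channel gene, at 76.6%, then Dmxl1 at 68.8%, Ssbp2 at 66.3%, Desi2 at 65.6%, the antisense RNA Gm26782 at 62.6%, the nuclear envelope gene Sun1 at 61.1%, Plekha5 at 60.6%, Sltm at 54.8% and Ggt7 at 52.6%. At Desi2 the level was 78.3, 60.0 and 51.9% for wild type and 83.3, 82.1, 45.5 and 80.95% for P195A/P195A, so that 1 animal of the latter lay below all wild-type animals.

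At the low end stood Cadm1 again, with a site of 1.05% (chr9:47680147), Snx12 (chrX:101209459) at 1.07%, Kcnip4 (chr5:49343533) at 1.10%, Thoc7 (chr14:13956122) at 1.14% and the lincRNA 5031425E22Rik (chr5:23407422) at 1.16%. A single site, chr5:23423567 in 5031425E22Rik, had 0 G reads among 404 A plus G reads in all, which allows a level of up to 0.743%. It is listed because another non-reference base was read there. Such limits and intervals cover counting error only.

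Sites of one gene differed widely in level. In Gm26782, sites of 45.4%, 14.03% and 62.6% followed each other at spacings of 634 and 356 nt. In Snx12, whose product is a sorting nexin of endosomes, a site of 1.07% lay between sites of 34.0 and 40.3%, at 697 and 1241 nt from them. Sun1 held sites of 16.7, 18.1, 61.1 and 31.3% within a few kilobases, the first 3 spaced by 437 and 971 nt. In Meg3, an imprinted noncoding RNA and the most deeply covered host here, sites of 13.4, 13.9 and 30.04% lay in 1 intron of 2748 nt the first and second 900 nt apart and the third closer still.

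Of the 5 genes with the most isolated sites, Kcnip4, Fgf14 and Kcnd2 held them in introns far longer than the median of 17832 nt. Kcnip4, which encodes an accessory subunit of Kv4 potassium channels, held 24 sites spread over 543474 nt of 1 intron of 1014880 nt, with levels from 0.478 to 38.8% (median 4.93%), 18 of them under 10%. Fgf14, a fibroblast growth factor homologue that binds sodium channels, held 20 in 1 intron of 540217 nt, with levels of 1.28 to 17.4%. Rtn3, a reticulon of the endoplasmic reticulum, held 13 sites in 3 introns of up to 21161 nt, with levels of 1.75 to 49.1%. The chromatin remodeller gene Chd9 held 10 in 2 introns of up to 41217 nt (5.43 to 24.7%). Kcnd2, the Kv4.2 channel subunit that Kcnip4 products bind, held 9 in 1 intron of 496721 nt, with levels of 0.621 to 36.8%. Averaged over its sites, Rtn3 stood at 10.5% for wild type, 13.3% for P195A/+, 15.2% for P195A/P195A and 16.9% for P195A/-, and Kcnip4 at 8.86, 9.68, 8.93 and 9.11%.

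Position in the intron was compared with the 5721 clustered intronic sites, as a description. The median intron was 17832 nt long for isolated and 31341 nt for clustered sites. First introns held 40.2 and 41.0%, and 65.8 and 66.3% lay nearer to the 5′ than to the 3′ splice site. Within 1000 nt of a splice site lay 18.1% of the isolated and 14.4% of the clustered sites, and within 100 nt only 4 isolated sites, in Senp2, Dgkz, Fgfr1 and Neto2 (chosen after their values were seen). The Dgkz site, 2 nt from the 3′ splice site, had a mean level of 0.631%.

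Levels were higher near splice sites. The median level was 10.01% at the 146 sites within 1000 nt of the nearer splice site, 9.30% at 431 sites from 1000 to 10000 nt, 7.42% at 155 from 10000 to 100000 nt and 6.98% at 73 farther away. The interquartile ranges overlapped (6.05 to 21.4% in the nearest band, 4.05 to 12.2% in the farthest). Median depth was 22.6 and 22.5 reads per library in the 2 nearer bands, 23.5 in the next and 32.8 in the farthest, and its part in the pattern was not tested. By intron length, medians were 9.75% under 5000 nt and 7.31% above 100000 nt.

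**Figure D2:**
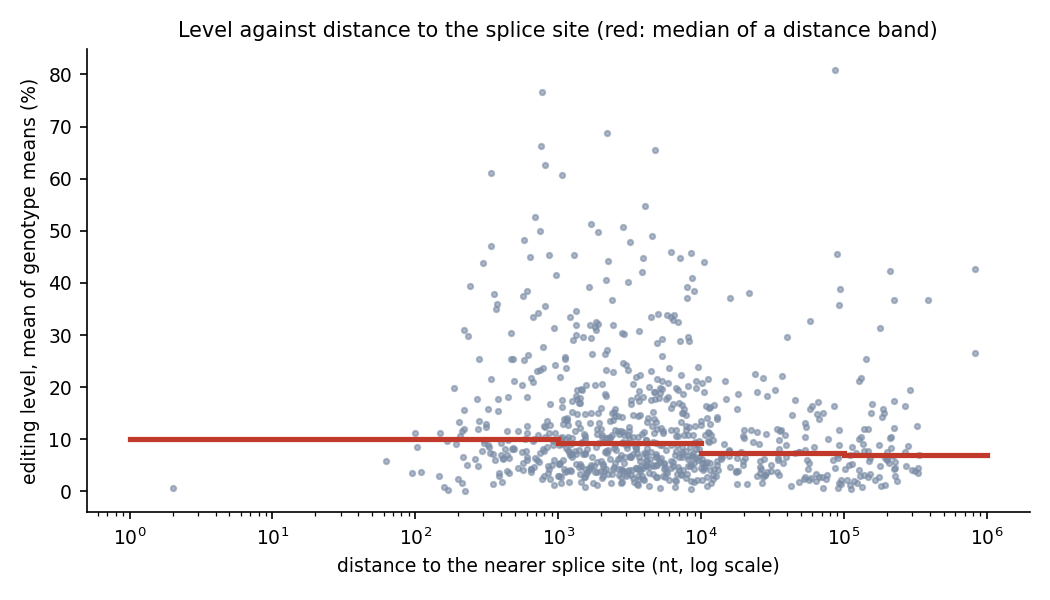
Editing level of each of the 805 sites (y axis, percent) against its distance to the nearer splice site (x axis, nt, log scale). Red bars are the medians of 4 distance bands, from 10.01% in the nearest to 6.98% in the farthest, with wide scatter in each.

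The mean level over the 805 sites was lowest in wild type. It was 11.1, 10.8 and 12.2% for the wild-type libraries, 14.3, 13.6 and 14.6% for P195A/+, 13.4, 12.99, 13.6 and 13.2% for P195A/P195A and 11.8, 12.2 and 12.9% for P195A/-. Every P195A/+ and P195A/P195A library lay above every wild-type library, whereas P195A/- libraries overlapped wild type. The genotype means were 11.3% ± 0.727 (SD, n = 3), 14.2% ± 0.505 (n = 3), 13.3% ± 0.265 (n = 4) and 12.3% ± 0.575 (n = 3). As the sites were chosen with earlier results known, no test was made of this mean.

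The same order of genotypes held over all joined sites and over clustered intronic sites, but not over sparse sites in 3′ UTRs. Over all 10613 joined sites the genotype means were 14.3, 15.9, 15.5 and 14.8%, over the clustered intronic sites 15.8, 17.7, 16.8 and 16.6%, and over 202 sparse sites in 3′ UTRs 8.56, 9.95, 10.5 and 8.40%, in the order wild type, P195A/+, P195A/P195A and P195A/-. Age and genotype are partly tied, since all P195A/+ and P195A/- animals were younger than any wild-type animal. Among animals of 48 days, the 2 wild-type libraries stood at 11.1 and 10.8% and the 2 P195A/P195A libraries at 13.6 and 13.2%. Each comparison table lists only sites with a non-reference read in at least 1 of its libraries, so a joined site with no such read in wild type had one in every mutant genotype. The part of this listing in the order of the means was not tested. Over the 356 members with a pooled level of at least 10% the means were 19.5% for wild type, 24.5% for P195A/+, 23.4% for P195A/P195A and 21.0% for P195A/-, an alternative chosen after seeing the data.

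**Figure D3:**
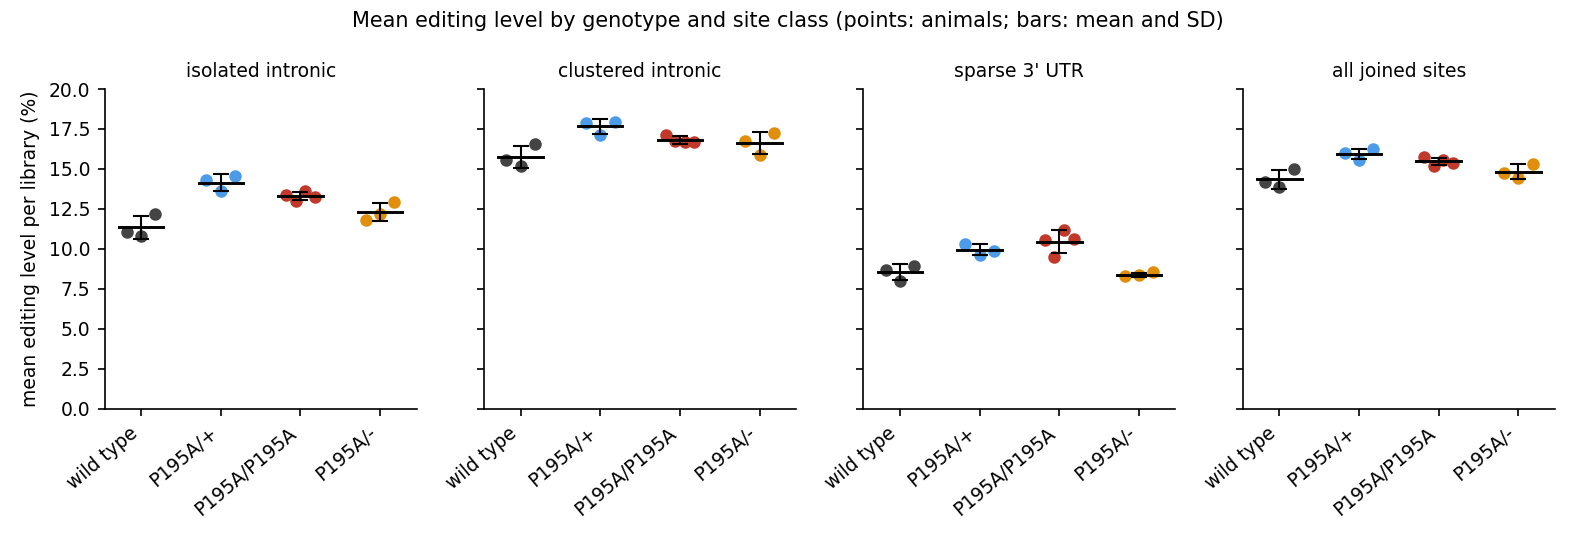
Mean editing level per library in percent (y axis, from 0) for 4 genotypes (x axis) and 4 site classes. Points are animals and bars the mean and SD. For isolated intronic sites wild type lies lowest, at 10.8 to 12.2%, and P195A/+ highest, at 13.6 to 14.6%.

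Adar RNA was compared beside these levels, as its gene hosts 3 of the sites. It was 187, 165 and 189 CPM for wild type, 242, 245 and 232 CPM for P195A/+, 345, 282, 340 and 322 CPM for P195A/P195A and 196, 203 and 204 CPM for P195A/-. In edgeR it rose in P195A/P195A against wild type (log2 fold change 0.84, SE 0.08, adjusted p = 5.91e-05) and fell in P195A/- against P195A/P195A (log2 fold change -0.68, SE 0.08, adjusted p = 0.000773). The order of Adar RNA (wild type, P195A/-, P195A/+, P195A/P195A) and the order of the mean level (wild type, P195A/-, P195A/P195A, P195A/+) differ in their last 2 places. The 3 Adar sites had mean levels of 7.49% (chr3:89719979), 6.63% (chr3:89722858) and 34.6% (chr3:89744048), and none of them had an unadjusted p under 0.05 in any of the 4 comparisons. At chr3:89744048 the genotype means were 34.1, 37.1, 33.3 and 34.0%, in the order wild type, P195A/+, P195A/P195A, P195A/-.

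Site by site, no isolated intronic site passed the test. In edgeR's quasi-likelihood test, adjusted by Benjamini-Hochberg over all 9722 joined sites tested, 0 of 790 tested members were called in any of the 4 comparisons. The 15 other members had a pooled level under 1%. Over all 9722 sites, 0.0411% were called in P195A/+ against wild type, 0.247% for P195A/P195A against wild type, 0.0103% for P195A/- against wild type and 0.113% for P195A/- against P195A/P195A. The smallest adjusted p of a member was 0.415, 0.115, 0.993 and 0.0915 in these comparisons. With a median of 23.2 reads per library and site, and a median SD of 4.70 points between wild-type animals, differences of a few points were not detectable at this depth. Larger ones were mostly missed too in reads simulated at the depths of the 9722 sites, for P195A/P195A against wild type. Of 100 sites changed by a log2 odds ratio of 1 the test called 1, and of 100 changed by 2 it called 26. A quasi-binomial regression run site by site called 0, 0, 0 and 1 member, against 0, 0, 0 and 2 of the 9722 sites (0.0206% in the last comparison).

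At an unadjusted p under 0.05, more members were higher than lower in each comparison with wild type. In P195A/- against P195A/P195A more were lower. All sites tested leaned the same way in each comparison. In P195A/+ against wild type, 56 members (7.09%) were higher and 9 (1.14%) lower, against 5.28% and 1.56% of all sites tested. In P195A/P195A against wild type, 51 (6.46%) were higher and 15 (1.90%) lower, against 6.05% and 2.13%. In P195A/- against wild type, 23 (2.91%) were higher and 13 (1.65%) lower, against 2.51% and 1.89%. In P195A/- against P195A/P195A, 16 (2.03%) were higher and 39 (4.94%) lower, against 2.4% and 5.18%. The median log2 odds ratio of the members was 0.41, 0.30, 0.15 and -0.05 in this order, against 0.20, 0.15, 0.05 and -0.09 over all sites tested. The first 3 comparisons share the wild-type animals.

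**Figure D4:**
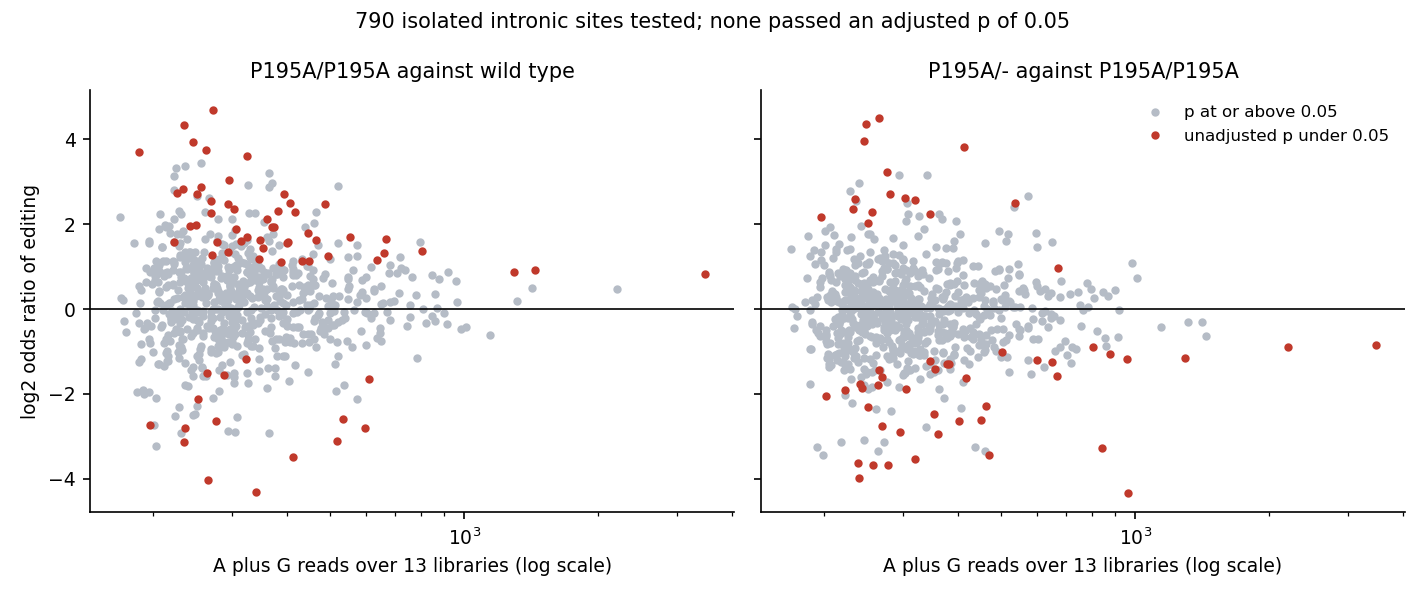
Log2 odds ratio of editing (y axis) against A plus G reads summed over 13 libraries (x axis, log scale) for the 790 tested sites in 2 comparisons. Red points have an unadjusted p under 0.05, 66 on the left and 55 on the right, and the scatter narrows toward deep sites.

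The deepest site of all, in an intron of Meg3 (chr12:109547961, plus strand, 1419 nt after the 5′ splice site), had 3467 reads. Its level was 21.0, 24.9 and 28.3% for wild type, 36.0, 33.8 and 31.7% for P195A/+, 42.5, 28.3, 39.3 and 37.9% for P195A/P195A and 24.7, 22.5 and 26.6% for P195A/-. All P195A/+ and P195A/P195A animals lay above all wild-type and P195A/- animals, by a small margin in P195A/P195A replicate 2. The site was also among those of smallest p in P195A/P195A against wild type and in P195A/- against P195A/P195A. That choice favours the separation of P195A/P195A from wild type and from P195A/-. The log2 odds ratio was 0.83 (SE 0.24, edgeR adjusted p = 0.143) in P195A/P195A against wild type and -0.85 (SE 0.24, adjusted p = 0.157) in P195A/- against P195A/P195A. Both were called when 20 reads were asked of every library, which left 3001 sites in the adjustment (adjusted p = 0.023 and 0.0203), and when P195A/P195A replicate 2 was left out (0.0483 and 0.0486). Meg3 RNA itself was 1691 CPM ± 167 (SD, n = 3) in wild type and 2015 ± 471 (n = 4) in P195A/P195A (edgeR adjusted p = 0.87).

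The other Meg3 sites had log2 odds ratios of similar size in some comparisons and smaller ones in others. At chr12:109546744, with 2209 reads, the genotype means were 12.4, 14.6, 16.7 and 9.70%, in the order wild type, P195A/+, P195A/P195A, P195A/-. Its 4 P195A/P195A animals (14.95 to 18.5%) lay above its 3 P195A/- animals (7.78 to 12.9%), with a log2 odds ratio of -0.89 (SE 0.32, edgeR adjusted p = 0.375). At chr12:109547644, with 1416 reads, the genotype means were 11.1, 16.6, 15.3 and 12.7%. Its log2 odds ratio in P195A/+ against wild type was 0.63 (SE 0.43, edgeR adjusted p = 0.804), beside 0.63 (SE 0.26, adjusted p = 0.672) at the deepest site. In that comparison chr12:109546744 had only 0.22 (SE 0.35). In P195A/- against P195A/P195A chr12:109547644 had -0.31 (SE 0.37), beside -0.85 at the deepest site. In P195A/P195A against wild type these 2 sites had 0.48 and 0.50, beside 0.83. Another imprinted noncoding RNA of this locus, Rian, had 0 G reads among 264 in wild type at chr12:109607879, which allows up to 1.14%, and at most 1.85% in any genotype. A330076H08Rik (chr7:61939787, 1445 reads) stood at 22.7, 23.2 and 22.4% for wild type, 33.3, 28.9 and 30.3% for P195A/+, 42.5, 26.0, 37.5 and 39.3% for P195A/P195A and 18.4, 32.1 and 29.7% for P195A/-.

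The other deep sites differed in their pattern. Snx12 (chrX:101210700, 1296 reads) had 34.4, 42.4 and 32.5% for wild type, 34.0, 53.1 and 38.5% for P195A/+, 51.1, 41.9, 52.1 and 59.0% for P195A/P195A and 24.0, 38.2 and 32.9% for P195A/-. Its log2 odds ratio in P195A/- against P195A/P195A was -1.16 (SE 0.34, edgeR adjusted p = 0.178), and the animals of these genotypes did not overlap. The Snx12 site was also among those of smallest p in that comparison, a choice that favours such a separation. A930015D03Rik (chr17:35999913, 1313 reads) stayed between 13.5 and 24.4% in every animal. The remaining deep sites, in R3hdm1, Luc7l2 and Zfp445, had mean levels of 3.62, 2.51 and 4.25%.

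In P195A/P195A against wild type, the smallest p belonged to Pum2, which encodes a Pumilio repressor of mRNA (chr12:8717175). Its level was 7.69, 10 and 9.09% for wild type, 26.5, 22.7 and 29.6% for P195A/+, 39.3, 41.7, 22.2 and 27.6% for P195A/P195A and 16.7, 14.3 and 10% for P195A/-. Every P195A/+ and P195A/P195A animal lay above every wild-type animal (log2 odds ratio 2.28, SE 0.65, edgeR adjusted p = 0.115 for P195A/P195A). It was called with at least 20 reads (adjusted p = 0.0396). Ntm, a neuronal adhesion molecule of the IgLON family (chr9:29374828), had 3.85, 7.69 and 15.2% for wild type and 33.3, 29.3, 21.4 and 55.2% for P195A/P195A. These did not overlap either (log2 odds ratio 2.32, SE 0.68, edgeR adjusted p = 0.139). Sites named for the smallest p of a comparison tend to separate its groups by that choice, so the separation adds no support.

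Some sites had no G in a whole genotype. Map7, a microtubule-associated protein gene (chr10:20191157), had 0 G reads of 66 in wild type, which allows up to 4.55%, and 5.88, 18.2, 9.09 and 11.1% for P195A/P195A. The 1700016P03Rik site whose sequence is shown above had 7.69, 0 and 17.1% for wild type and 0 G of 104 reads in P195A/P195A, which allows up to 2.88%. Its edgeR adjusted p was 0.282 and that of Map7 0.249. Gramd1b, a sterol transporter gene (chr9:40331225), had 0 G of 49 reads in wild type (up to 6.12%) and 15, 10 and 21.4% for P195A/-. By the listing rule above, a site without a non-reference read in wild type was kept only if every mutant genotype had one. The contrasts at Map7 and Gramd1b are thus partly set by that rule. Wild type did not stand out among all members. No G was read at 35 members for wild type and at 40 for P195A/+. The count was 29 for P195A/- and 24 for P195A/P195A.

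In P195A/- against P195A/P195A, Appl2, an endosomal adaptor gene (chr10:83630297), had the smallest p. It stood at 33.3, 29.4, 37.0 and 38.1% for P195A/P195A and at 3.23, 14.8 and 4.17% for P195A/-, with 13.5, 19.5 and 10.5% for wild type. P195A/P195A and P195A/- did not overlap, which the choice by smallest p favours (log2 odds ratio -2.64, SE 0.70, edgeR adjusted p = 0.0915). The site was called with at least 20 reads (adjusted p = 0.0271). Lsamp, another IgLON adhesion molecule (chr16:41572177), had 25.8, 15.9, 25 and 21.2% for P195A/P195A and 2.44, 4.17 and 3.23% for P195A/- (log2 odds ratio -2.93, SE 0.83, edgeR adjusted p = 0.157). It was called by the quasi-binomial regression (adjusted p = 0.0386), which scales by the site's own spread between animals. That spread was small here, at 0.22 of the binomial variance, against a median of 1.12 over the members. Sun1 (chr5:139228872) had 13.6, 36.7, 38.1 and 26.9% against 7.41, 6.45 and 6.06% (log2 odds ratio -2.48, adjusted p = 0.177).

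**Figure D5:**
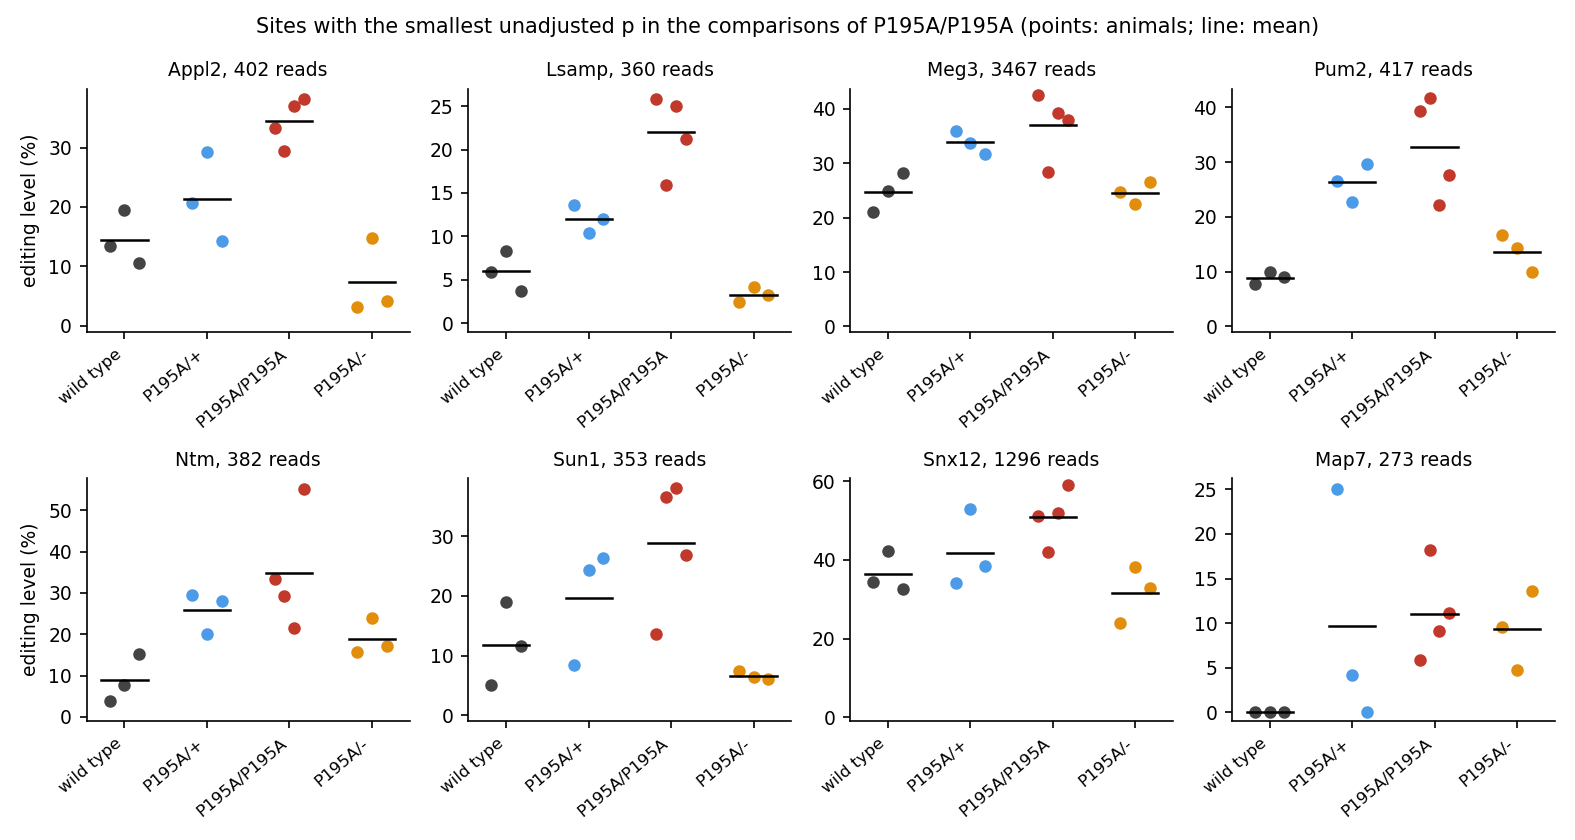
Editing level in percent (y axis, scale of its own in each panel) by genotype (x axis) at 8 sites with the smallest unadjusted p in the 2 comparisons that involve P195A/P195A. Points are animals and lines means. At Appl2, Lsamp, Meg3 and Snx12 all P195A/P195A animals lie above all P195A/- animals.

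In P195A/+ against wild type, the site of smallest p was in Gm26782 (chr14:50873756), with 5.56, 5.41 and 2.63% for wild type and 15.6, 22.5 and 34.4% for P195A/+ (log2 odds ratio 2.60, SE 0.74, edgeR adjusted p = 0.415). Banp, a nuclear matrix protein gene (chr8:121957588), had genotype means of 7.14% for wild type and 29.8% for P195A/+, and Anks1b, a postsynaptic scaffold gene (chr10:90752644), of 6.42 and 29.2%. Fgf14 (chr14:124653269) went the other way, with 5.26, 33.3 and 17.1% for wild type and 7.41, 1.39 and 2.13% for P195A/+. Its highest P195A/+ animal lay above its lowest wild-type animal. In P195A/- against wild type, the Gramd1b, Map7 and Pcdh9 sites each had an edgeR adjusted p of 0.993.

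The widest range of genotype means was 31.0 points, at Zfp160 (chr17:21021870), with 16.5, 39.4, 23.2 and 8.49% in the order wild type, P195A/+, P195A/P195A, P195A/-. Within P195A/P195A alone its animals ran from 9.09 to 43.8%. Gatad2b, a NuRD complex gene (chr3:90357400), followed with 34.5, 49.2, 18.8 and 19.3%, then Pias2 with 13.6, 43.4, 41.0 and 35.8%, Kidins220 with 19.2, 40.4, 31.1 and 12.5% and Kcnd2 (chr6:21440484) with 39.8, 36.5, 49.2 and 21.8%. Over all members the range of genotype means had a median of 7.44 points, with 212 sites under 5 points and 41 over 20. These 5 sites are named for that range, which gets no test.

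Genes with known recoding sites hosted 14 isolated intronic sites in 8 of 37 listed genes, with a median level of 6.96%. Counting an unadjusted p under 0.05, 2 of the 14 passed in P195A/+ and 2 in P195A/P195A against wild type, 1 in P195A/- against wild type and 0 in P195A/- against P195A/P195A. Over all sites tested the shares were 6.84%, 8.18%, 4.4% and 7.58%, and nothing is read from counts this small. The highest was in Cyfip2, a WAVE complex gene (chr11:46271860), where 154 of 310 reads carried G (49.7%, Wilson interval 44.1 to 55.2%). Gria3 and Gria4 encode AMPA receptor subunits and Grik2 a kainate receptor subunit. The 2 Gria3 sites stood at 2.37 and 7.66%, the 2 deepest Gria4 sites at 14.2% (chr9:4443907) and 4.10% (chr9:4455436), and 2 Grik2 sites at 6.26 and 4.51%. Unc80, a subunit of the NALCN sodium leak channel (chr1:66673096), had 8.00, 4.76 and 3.13% for wild type, 22.2, 17.2 and 16.0% for P195A/+, 3.23, 11.1, 35.7 and 23.3% for P195A/P195A and 6.25, 10.8 and 11.8% for P195A/-. P195A/P195A overlapped wild type, and the edgeR adjusted p was 0.69 in P195A/+ and 0.481 in P195A/P195A against wild type. Copa, a coatomer subunit gene, stood at 12.6% and Mfn1, of mitochondrial fusion, at 8.27%.

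Other gene groups were described by their counts. Synaptic adhesion and scaffold genes held 40 sites in 15 of 49 genes (median level 8.58%), RNA-binding and splicing regulators 22 sites in 6 of 24 (7.92%) and voltage-gated channels 18 sites in 7 of 36 (12.3%). Glutamate receptors held 12 sites in 6 of 24 genes (4.58%), vesicle release genes 8 in 7 of 29 (14.2%) and GABA receptors 1 site, in Gabra4. None of the 30 listed interferon-stimulated genes held a site. Of all 19962 genes tested for RNA only 485 were hosts, so nothing is read from this. Among synaptic adhesion sites, 39 were tested, and 3, 2, 1 and 3 had an unadjusted p under 0.05 in the 4 comparisons as ordered above, against 6.84%, 8.18%, 4.4% and 7.58% of all sites tested.

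RNA of the host genes was compared in the same way. Of the 489 hosts, 485 were tested and 0, 2, 0 and 1 were called by edgeR at an adjusted p under 0.05, in the order above, against 0.01%, 0.0501%, 0.0351% and 0.0401% of all 19962 genes. At an unadjusted p under 0.05 the counts were 30 (6.19%), 48 (9.90%), 78 (16.1%) and 41 (8.45%), against 4.48%, 5.89%, 10.6% and 6.82% of all genes. DESeq2 called 2 (0.412%), 2 (0.413%), 11 (2.32%) and 1 (0.206%), against 0.0938%, 0.0863%, 1.54% and 0.23% of all genes with an adjusted p. The hosts called by edgeR were Adar, above, and Tpm3, a tropomyosin gene, which rose in P195A/P195A against wild type. Tpm3 stood at 52.0, 61.4 and 57.4 CPM for wild type and at 131, 78.3, 121 and 117 CPM for P195A/P195A (log2 fold change 0.97, SE 0.13, edgeR adjusted p = 0.00614). It was not called without wild type replicate 1 or replicate 3, nor with the replicate number as a block. DESeq2 called Tpm3 also in P195A/+ (log2 fold change 0.66) and P195A/- (0.74) against wild type, and Adar also in P195A/+ (0.41). With no filter on low counts edgeR called Tpm3 in P195A/- too (0.74, adjusted p = 0.0399).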

How the data were processed

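RNA of 13 whole brains was measured by sequencing. The authors deposited read counts per base at listed sites as JACUSA2 2.0.0-RC5 tables on mm10. They per the file headers leave out reads marked as duplicates, need a coverage of 3 and cap depth at 3000. Estimated counts per gene (expected counts) deposited by the authors came, per the submitters' processing notes, from fastp 0.19.5 and Salmon, with edgeR named too. No aligner is named in the sources used here.

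From these, the 3 tables against wild type were joined, and G and A reads of the 9722 sites with at least 10 reads in every library and a pooled level of 1 to 99% were fitted with edgeR 4.0.16 in R 4.3.3 (1 intercept per library, 1 edited coefficient per genotype, quasi-likelihood, robust). Sites were called at an adjusted p under 0.05. Gene counts were rounded, scaled by TMM and fitted likewise; DESeq2 1.42.0 was an alternative. Introns were taken from the transcript with the shortest intron over the site. Scripts were tested on simulated data. Python 3.11.15 was used with pandas 2.3.3. Named sites are the 5 of smallest p per comparison, the 10 highest and 5 lowest levels from 1 to 99%, the 10 deepest, the 5 widest ranges, up to 10 in recoded genes or editing enzymes, and the 5 genes with most sites; some that this rule names are not reported here. Members and lists were chosen with earlier results of these data known. Neighbouring bases, repeats and folding partners were examined only as far as annotated transcripts reach. Replicate numbers did not pair the animals. P-values measure the spread between animals. In the edgeR editing test this spread was estimated largely over all sites together, so p takes little account of a site's own spread. The quasi-binomial regression used the spread of each site alone.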

Additional observations from a re-analysis of the deposited data

Results flagged for a closer look

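In 61 values examined over the 4 P195A/P195A animals, 4 sites had 1 animal set apart by the gap to the others. At Desi2 (chr1:178193426) the lowest animal stood at 45.5%, from 5 G of 11 reads, while the others lay above 80%. The remaining 3 rest on a single read, and nothing is read from them. Chance flags about 1 in 20 groups of continuous values, a rate that does not apply where values are tied at 0. At Thoc7 (chr14:13956122) the highest animal stood at 5.26% (1 G of 19 reads) and at 5031425E22Rik (chr5:23407422) at 2.94% (1 of 34), with 0 G in the other 3. At Gria3 (chrX:41655124) the lowest animal had 0% (0 of 19) and each of the others 1 G read.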

How the results depend on the processing

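With at least 20 reads in every library, 3001 of 9722 sites and 147 of 790 members were left to test. Of these members, 2 isolated intronic sites were called in P195A/P195A against wild type, beside 38 of the 3001 sites (1.27%). In P195A/- against P195A/P195A, 2 members were called, beside 29 of the 3001 sites (0.966%). The unadjusted edgeR p of Pum2 went from 0.000451 to 0.000475 and that of Appl2 from 0.000162 to 0.00019. The calls of Pum2 and Appl2 thus came with fewer tests in the adjustment and not with a smaller p. The Meg3 site was called in both comparisons, and its unadjusted p did fall. It went from 0.000662 to 0.000226 against wild type and from 0.000444 to 0.000128 in P195A/- against P195A/P195A. The quasi-binomial regression called 1 member in P195A/- against P195A/P195A, beside 2 of all 9722 sites. Without any 1 replicate the counts ranged from 0 to 1 in both comparisons, the 1 being the Meg3 site without P195A/P195A replicate 2. In the other 2 comparisons every alternative run left 0 calls. At the named sites of smallest p, 243 of 243 alternative values kept their sign. These sites were picked by p in the same reads that the alternatives refit, so the kept sign adds no support.

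Host genes called in P195A/P195A against wild type numbered 1 with the replicate block and 1 to 2 without single replicates. DESeq2 called 2 hosts in P195A/+ and 11 in P195A/- against wild type, and dropping the filter on low counts gave 1 in the latter. The replicate block left 0 isolated sites called in each comparison; same-numbered animals correlated at a median of -0.00728 (-0.102 to 0.0504, 18 pairs), so the numbers do not pair them.

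The mean level in P195A/P195A was 14.1% with at least 20 reads and 12.9% with an isolation distance of 500 nt. Over members with a pooled level of at least 10% the means were 19.5, 24.5, 23.4 and 21.0%. The cause of these shifts was not tested, beyond the smaller set of sites. Depth of 23.2 reads per library at the median site limits what a single site can show.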
